A study of Mus musculus with 10 samples.

Results

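Benzamil was compared with its solvent, DMSO, in mouse ear skin under imiquimod. The comparison took in every library with both agents' labels, 4 with benzamil and 4 with DMSO out of 10 libraries in the series, and all 10653 genes of the table that holds them. Of these genes, 874 had no row in the table that holds the 2 untreated libraries, and they were kept. Both groups came from c57/Bl6 mice of 6 to 8 weeks that were treated on the skin for 6 days, and both received imiquimod. They differed by label in DMSO or benzamil alone. The design text of the series names back and ears as the sites of application, while each sample label names ear skin. No label gives the benzamil concentration, or says that the 4 libraries of a group came from separate mice, so the p-values rest on how far these libraries spread, and that spread may be technical.

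Imiquimod is a Toll-like receptor agonist whose repeated use on mouse skin gives a psoriasis-like inflammation. In such skin, IL-1, IL-36 and IL-17 family cytokines act on keratinocytes through NF-kB, STAT3 and AP-1. Keratinocytes then switch from the programme of late differentiation, with loricrin, filaggrins and late cornified envelope proteins, to stress keratins, small proline-rich proteins and antimicrobial proteins. Benzamil, a relative of amiloride, is a blocker of the epithelial sodium channel. The question named by the series title is whether blocking that channel acts on skin inflammation.

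The libraries held between 139204 reads (benzamil library 4) and 938322 reads (DMSO library 1). With 3' libraries 1 read stands for 1 fragment near the end of a transcript, and levels are given as CPM, reads relative to a library's total, scaled between libraries by TMM. Such values compare 1 gene between libraries, not 2 genes with each other. Benzamil libraries 3 and 4 were the shallowest and the farthest from the DMSO libraries, at 45.7 and 44.5 on the first principal component (46.6% of the variance) against 15.3 and 13.0 for benzamil libraries 1 and 2. Ribosomal RNA (mt-Rnr1, mt-Rnr2 and Rn18s-rs5 pooled) took 22% to 28.7% of reads with DMSO and 30.8% to 45.5% with benzamil. This difference of 10.2 percentage points had an exact two-sided permutation p of 0.0286, the smallest that 4 against 4 allows. Of this pool, the mitochondrial mt-Rnr2 alone differed by 13.3 points (means of 16.3% with DMSO and 29.7% with benzamil). The remainder of the pool thus took no larger mean share with benzamil. Among protein-coding genes with at least 40 reads, transcripts with a longest annotated form under 1000 bases were called lower more often (28.6% of 318 genes) than those of 3000 bases and over (8.39% of 4040). The short ones were also called higher somewhat more often (10.7% against 7.40%). Their median level stood 0.42 above the DMSO mean on the log2 scale in DMSO library 1 and -0.75 from it in benzamil library 3. The part of depth, ribosomal RNA and transcript length in the results below was not tested.

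Over all genes, 571 rose with benzamil (5.36%) and 879 fell (8.25%) at an edgeR adjusted p under 0.05, and 2904 had an unadjusted p under 0.05. The median log2 fold change was -0.08. Groups did not overlap for 1806 genes (17%), 714 of them higher with benzamil (6.7%) and 1092 lower (10.3%). Of the called genes with at least 40 reads, 99.3% to 100% of the 805 lower ones and 96.2% to 100% of the 497 higher ones lay on the called side of the DMSO mean in each benzamil library. The calls were made on these same libraries, so high shares follow from the choice of genes and say little about agreement between libraries. Leaving out DMSO library 1, the deepest, gave 338 higher and 544 lower genes. Leaving out benzamil libraries 3 and 4 together, a choice made after seeing the data, gave 366 and 426. Scaling by library totals alone gave 334 and 1304, so that 20.4% instead of 39.4% of calls were higher, and the median of all genes moved to -0.28. No gene called here was called in the opposite direction in any alternative.

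**Figure D1:**
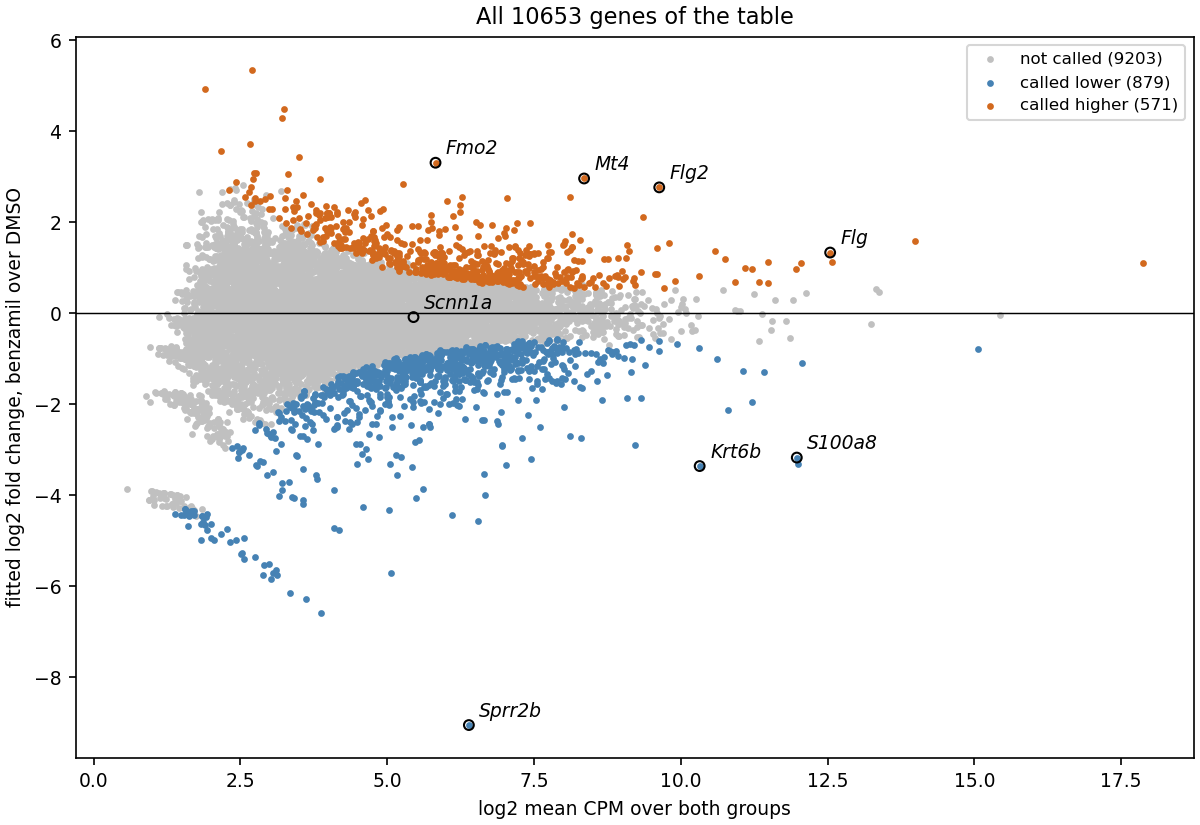
Fitted log2 fold change of benzamil over DMSO (vertical axis) against the log2 of the mean CPM over both groups (horizontal axis) for all 10653 genes. Orange points are the 571 genes called higher, blue points the 879 called lower, grey points the rest, and circles mark 8 genes named in the text, with Krt6b and S100a8 far below 0 and Flg2 and Mt4 far above.

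The genes of inflamed epidermis fell almost as a whole. Of the 25 stress keratins, small proline-rich proteins, late cornified envelope 3 proteins and stefins in the table, 24 fell and 0 rose, with a median log2 fold change of -2.49 (members without benzamil reads at their bound) against -0.08 for all genes. Krt6b, a keratin of hyperproliferative and wounded epidermis (chr15:101676023-101680287), held 3368, 3247, 1792 and 906 CPM with DMSO and 202, 257, 61.1 and 401 CPM with benzamil. All 4 DMSO libraries stood above all benzamil libraries, and benzamil library 3 was the lowest (log2 fold change -3.36 ± 0.31, adjusted p = 8.8e-11). Stfa1, a cysteine protease inhibitor that belongs to a cluster of near-identical stefin genes, held 828, 631, 372 and 351 CPM with DMSO and 89.3, 73, 30.5 and 141 CPM with benzamil (log2 fold change -2.75 ± 0.27, adjusted p = 4.48e-10). The same keratinocyte programme includes Krt6a, Krt16 and Krt17, which fell, with log2 fold changes of -2.12, -1.01 and -1.36. For Krt17 benzamil library 4 lay inside the DMSO range, and for Krt16 it lay above every DMSO library. Ivl, which encodes involucrin, was the member without a call, at -0.14 ± 0.23. Between 20 and 24 of these members fell under each alternative.

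Sprr2b, a small proline-rich protein of the stressed envelope (chr3:92316620-92318085), had no read in any benzamil library. Its DMSO libraries held 281, 180.5, 125 and 83.8 CPM, from 415 reads in all. With 3 reads over the benzamil group as the floor, it was at least 65.5-fold lower. Sprr2g held 281, 132, 202 and 94.3 CPM with DMSO and 2.88, 3.17, 0 and 35.1 CPM with benzamil (log2 fold change -4.57 ± 0.46, adjusted p = 5.62e-10). Benzamil library 4 stood apart from the other 3, yet under every DMSO library. Members of the Sprr2, Lce and stefin clusters are close copies, and how the counting shared reads among them is not given in the sources used here, so single members are less certain than their families.

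Sprr and Lce genes lie side by side on chromosome 3 in the epidermal differentiation complex, between S100a1 and S100a10 (chr3:90511034-93564643, mm10). Of the 60 genes of the table in this window, 17 rose and 25 fell. In the Sprr family with Ivl, 11 of 12 fell and 0 rose. Among Lce3 genes all 6 fell, and their log2 fold changes ran from -0.96 ± 0.28 for Lce3f to -4.43 ± 0.49 for Lce3a. Among the Lce1 and Lce6 genes with Crct1, 11 of 16 rose and 0 fell, with a median of 1.17. The fused S100 genes, which encode filaggrin-type proteins, had 3 that rose (Flg2, Flg, Hrnr) and 1 that fell (Rptn). The 6 Lce3 genes lie between 2310050C09Rik on one side and Crct1 on the other. On the first side Lce1l, 346 kb before the Flg2 start, and 2310050C09Rik, 327 kb before it, rose (1.13 ± 0.26 and 1.198 ± 0.24), and the next gene, Lce3a, 271 kb before it, fell. On the other side Lce3f, 205 kb before it, fell, its neighbour Crct1 was not called (0.50 ± 0.20), and Lce1m, 178 kb before it, rose (1.90 ± 0.28). The window and the families were drawn after the values were seen, so this is a description. Chromosome 3 held 84 lower calls among its 591 genes, or 14.2%, of which these make up a part.

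**Figure D2:**
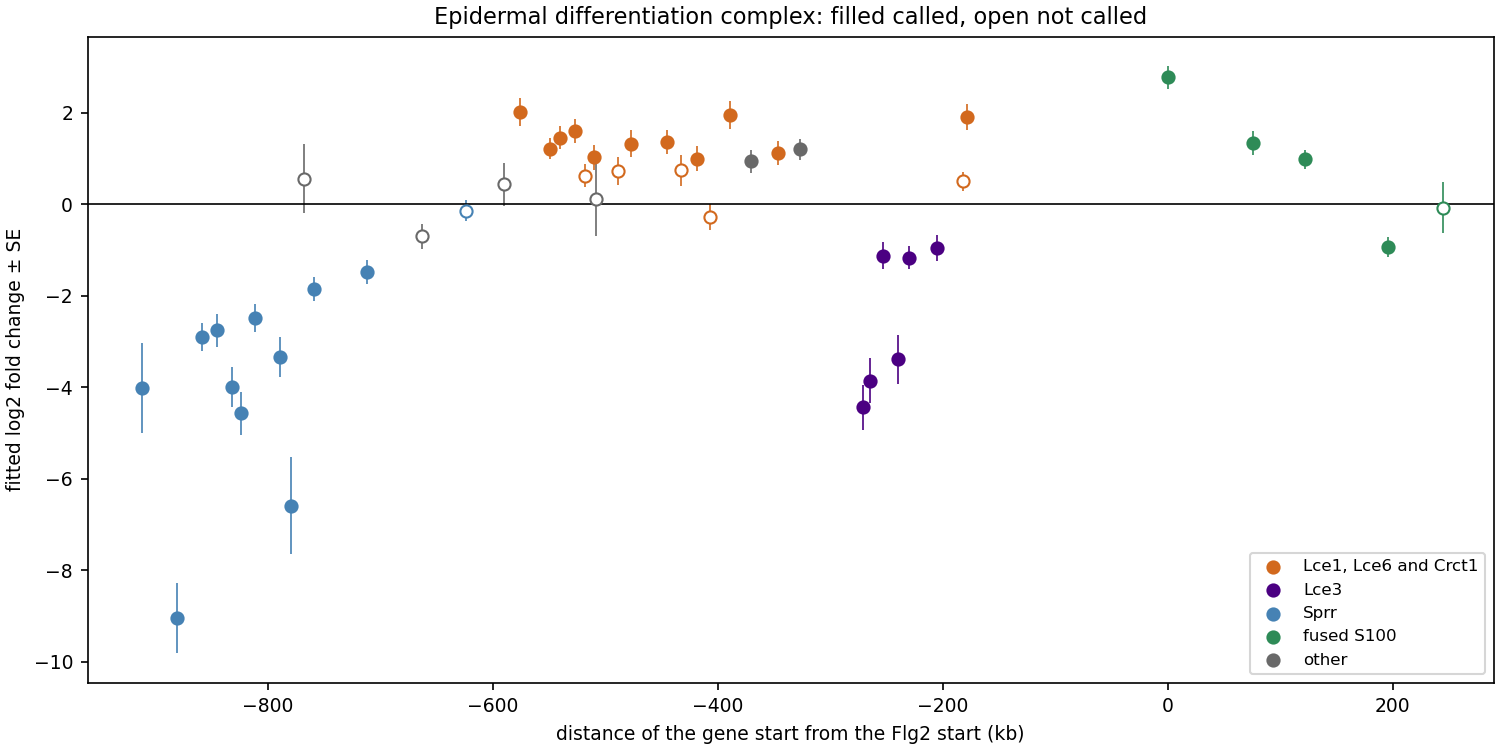
Fitted log2 fold change of benzamil over DMSO with its standard error (vertical axis) for genes of the epidermal differentiation complex, by the distance of their start from the Flg2 start in kb (horizontal axis, from 960 kb before it). Filled points are called and open points are not; colours are families, the lowest 2 points (Sprr2b and Sprr2j-ps) have no benzamil read, so that their fitted values are no measure of size, and the Sprr and Lce3 points lie below 0, while called Lce1 points lie above it on both sides of the Lce3 block.

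The 250 bases before the RefSeq start of 4 of these genes, those of smallest p in their families (GRCm38.p6), show what neighbours of opposite direction carry. Capitals mark an AP-1 motif (TGANTCA) or a TATA motif (TATAAA), both searched on both strands. RefSeq and GENCODE start these genes at slightly different bases.
Sprr2b, fell, chr3:92316455-92316704, plus strand: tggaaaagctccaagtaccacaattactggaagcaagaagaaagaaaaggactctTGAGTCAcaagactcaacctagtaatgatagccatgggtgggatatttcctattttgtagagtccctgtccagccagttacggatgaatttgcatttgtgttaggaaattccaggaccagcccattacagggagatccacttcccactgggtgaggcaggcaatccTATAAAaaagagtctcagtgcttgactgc
Lce3a, fell, chr3:92926231-92926480, minus strand: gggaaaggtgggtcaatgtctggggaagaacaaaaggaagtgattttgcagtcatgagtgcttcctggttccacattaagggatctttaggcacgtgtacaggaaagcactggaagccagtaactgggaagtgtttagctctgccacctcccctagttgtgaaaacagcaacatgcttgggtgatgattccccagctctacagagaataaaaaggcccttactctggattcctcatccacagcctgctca
Lce1m, rose, chr3:93019062-93019311, minus strand: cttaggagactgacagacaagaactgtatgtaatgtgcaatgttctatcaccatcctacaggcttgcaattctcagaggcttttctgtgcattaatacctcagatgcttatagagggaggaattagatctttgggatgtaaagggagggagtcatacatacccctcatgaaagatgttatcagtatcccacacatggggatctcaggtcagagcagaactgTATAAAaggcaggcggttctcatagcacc
Flg2, rose, chr3:93197023-93197272, plus strand: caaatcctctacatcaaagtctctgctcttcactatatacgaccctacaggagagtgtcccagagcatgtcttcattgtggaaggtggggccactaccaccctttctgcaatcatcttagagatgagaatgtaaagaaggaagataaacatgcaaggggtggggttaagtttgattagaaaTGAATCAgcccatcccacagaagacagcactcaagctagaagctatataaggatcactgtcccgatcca
Sprr2b, which fell, had an AP-1 match 195 bases before its start, and Flg2, which rose, had one 69 bases before. The TATA match of Sprr2b and that of Lce1m both began 29 bases before the start, and Lce3a had neither motif. Over all genes, 8135 of 10653 matched a promoter, and 4.52% of these held an AP-1 match. In the list of stress keratins and envelope precursors it was 9 of 20 (45.0%), and in the differentiation list 11 of 57 (19.3%). The TATA motif was frequent in the first list as well, in 10 of 20 (50.0%) against 6.82% of all genes. That list holds close copies, whose promoters may not be independent, and it was chosen with earlier results known. Genes called lower held an AP-1 match in 6.91% of 709 promoters and genes called higher in 5.41% of 425. For TATA these shares were 9.31% and 8.71%, for NF-kB 2.12% and 1.41%, and for C/EBP 10.3% and 10.1%. Over the 27025 genes of the whole RefSeq table the share was 6.87% for AP-1 and 13.0% for TATA. A match is a stretch of letters and no evidence of binding.

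Antimicrobial proteins and alarmins fell as well. Of 18 in the table, 13 fell and 1 rose, with a median log2 fold change of -1.44. S100a8, a subunit of calprotectin made by neutrophils and stressed keratinocytes (chr3:90668978-90670035), held 9001, 8536, 5479 and 5905 CPM with DMSO and 859, 143, 91.6 and 2200 CPM with benzamil. Every benzamil library stood below every DMSO library, but the benzamil libraries were spread from 91.6 to 2200 CPM (log2 fold change -3.17 ± 0.42, adjusted p = 2.96e-07). Its partner S100a9 had the same shape, with 8498, 8669, 4919 and 7405 CPM with DMSO and 1164, 190.5, 97.7 and 1546 CPM with benzamil (log2 fold change -3.31 ± 0.39, adjusted p = 1.75e-08). Defb6, a beta-defensin, fell more evenly, from 1074, 679, 696 and 762 to 262, 327, 336 and 408 CPM (log2 fold change -1.295 ± 0.20, adjusted p = 7.05e-06). Lcn2, which binds bacterial siderophores, and Slpi, a secreted leukocyte protease inhibitor, fell, with log2 fold changes of -2.06 and -2.82, and for both benzamil library 4 lay inside the DMSO range. Wfdc21 was the member that rose, from 70.4, 25.4, 76.5 and 49.8 to 161, 181, 91.6 and 91.4 CPM (log2 fold change 1.29 ± 0.27, adjusted p = 0.000596).

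Among 11 neutrophil markers, 4 fell and 1, Wfdc21 of the list above, rose. Their summed level was 10570 to 17740 CPM with DMSO and 305 to 3887 CPM with benzamil, but S100a8 and S100a9 made up 98.3% to 99.4% of it with DMSO and 56.1% to 96.4% with benzamil. The other 9 markers summed to 102 to 243 CPM with DMSO and 116 to 260.4 CPM with benzamil, with overlapping groups, and 2 of the 9 fell and 1 rose. Wfdc21 held the larger part of this sum in each benzamil library (161, 181, 91.6 and 91.4 of 231, 260.4, 116 and 141 CPM). In each DMSO library it held the smaller part (70.4, 25.4, 76.5 and 49.8 of 243, 102, 174 and 175 CPM). The overlap of the sums therefore says little about the markers without Wfdc21. Cxcr2, a chemokine receptor of neutrophils, fell from 78.5, 45.8, 24.4 and 55 to 14.4, 19.1, 6.11 and 14.1 CPM (log2 fold change -1.92 ± 0.41, adjusted p = 0.000742). Retnlg had 23 DMSO reads and none with benzamil, at least 3.63-fold lower, and this call was lost in 6 of 16 alternatives. In whole skin, fewer neutrophils and less of these RNAs per cell cannot be told apart, for these genes or for any other.

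Cytokines of the IL-1, IL-36, IL-17, IL-20 and IL-23 families fell in 9 of 13 cases and rose in 1. Il1b, which encodes IL-1 beta, held 98.9, 15.3, 87 and 41.9 CPM with DMSO and 11.5, 3.17, 0 and 7.03 CPM with benzamil. DMSO library 2 was the lowest of its group and still above each benzamil library (log2 fold change -3.31 ± 0.55, adjusted p = 2.42e-05). Il36a, an epithelial IL-1 relative that drives psoriasis-like inflammation, was even within both groups, at 256, 267, 261 and 244 with DMSO and 86.5, 114, 140.5 and 134 CPM with benzamil (log2 fold change -1.16 ± 0.21, adjusted p = 0.000115). Il19, an IL-20 family member made by keratinocytes, fell from 99.9, 38.1, 45.2 and 60.2 to 5.76, 0, 0 and 35.1 CPM (log2 fold change -3.11 ± 0.53, adjusted p = 2.84e-05). Benzamil library 4 held most of its remaining signal. Il1a had 48 DMSO reads and 1 benzamil read, a ratio of DMSO over benzamil of 22.7 after scaling to depth (95% interval from counting alone 3.89 to 917; log2 fold change -4.035 ± 0.96, adjusted p = 0.00247), with no read in DMSO library 4, so its groups met at 0. Il18 went the other way. This IL-1 relative is stored in resting keratinocytes, and it held 48.9, 45.8, 76.5 and 60.2 CPM with DMSO and 208, 241, 196 and 169 CPM with benzamil, without overlap (log2 fold change 1.88 ± 0.23, adjusted p = 7.91e-08). Il17a was not analysed here.

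Chemokines were thinly covered, and 3 of 11 fell and 1 rose. Ccl20, which attracts CCR6-bearing T cells and dendritic cells, had 79 DMSO reads and 1 benzamil read, a ratio of 37.4 of DMSO over benzamil after scaling to depth (95% interval from counting alone 6.53 to 1497; log2 fold change -4.75 ± 0.82, adjusted p = 3.58e-05). Cxcl2, a neutrophil attractant, fell from 75.5, 28, 52.2 and 165 to 5.76, 15.9, 0 and 28.1 CPM (log2 fold change -2.78 ± 0.49, adjusted p = 5.87e-05), with DMSO library 2 and benzamil library 4 at the same level. Ccl4, a chemokine of myeloid and T cells, was the third that fell, on few reads. Ccl27a, a keratinocyte chemokine, was called higher at 1.82 ± 0.63, with 11 DMSO and 19 benzamil reads, and lost that call in 12 of 17 alternatives.

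Receptors and their signal carriers fell in 9 of 38 cases, and none rose. Stat3, the transcription factor below IL-6 and IL-20 type receptors, held 428, 376, 285 and 393 CPM with DMSO and 184, 118, 134 and 105 CPM with benzamil, without overlap (log2 fold change -1.42 ± 0.21, adjusted p = 3.49e-06). Its feedback inhibitor Socs3 had 74 DMSO reads and 2 benzamil reads, a ratio of 17.5 (95% interval from counting alone 4.68 to 147; log2 fold change -3.875 ± 0.67, adjusted p = 4.43e-05). Myd88, the adaptor shared by Toll-like and IL-1 receptors, fell as well (log2 fold change -1.43 ± 0.34, adjusted p = 0.00243), as did Osmr, the oncostatin M receptor (log2 fold change -1.63 ± 0.44, adjusted p = 0.00742). The 9 became 5 without DMSO library 1 and 4 without benzamil libraries 3 and 4.

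NF-kB regulators and targets fell in 6 of 18 cases and rose in 1. Nfkbia, the inhibitor that NF-kB induces against itself, held 1210, 1106, 915 and 793 CPM with DMSO and 464, 222, 159 and 225 CPM with benzamil. The lowest DMSO library stood well above the highest benzamil library (log2 fold change -1.865 ± 0.23, adjusted p = 6.5e-08). Bcl3, Zc3h12a and Sod2, all known as NF-kB targets, fell, with log2 fold changes of -2.11, -1.94 and -1.865. Tnip1, a brake on NF-kB signalling, rose from 31.6, 35.6, 34.8 and 31.4 to 77.8, 57.1, 122 and 84.3 CPM (log2 fold change 1.30 ± 0.29, adjusted p = 0.00139). The subunits Nfkb1 and Rela were not called, at -0.98 ± 0.40 and -0.64 ± 0.41.

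AP-1 and immediate early genes fell in 13 of 24 cases, and none rose. Junb, an AP-1 subunit, held 202, 206, 139 and 120.5 CPM with DMSO and 46.1, 41.3, 6.11 and 21.1 CPM with benzamil, with benzamil library 3 the lowest (log2 fold change -2.35 ± 0.30, adjusted p = 1.62e-07). Its partners Fosl1 and Fosl2 fell, Fosl1 with 29 DMSO reads and 1 benzamil read and Fosl2 with -1.605 ± 0.34. Dusp6, a phosphatase induced by and directed against ERK, had -2.71 ± 0.48, and Myc, a growth regulator, -2.11 ± 0.60. Jun itself was not called, at 0.04 ± 0.22. Without benzamil libraries 3 and 4, 7 members fell.

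Ligands of the EGF receptor moved in opposite directions. Of 17 genes of this list, 6 fell and 1 rose. Epgn, the gene of epigen, held 158, 83.9, 45.2 and 47.1 CPM with DMSO and 2.88, 6.35, 0 and 14.1 CPM with benzamil (log2 fold change -4.06 ± 0.53, adjusted p = 1.87e-07). Tgfa, the gene of TGF-alpha, fell from 105, 78.8, 104 and 41.9 to 14.4, 9.53, 24.4 and 14.1 CPM (log2 fold change -2.50 ± 0.38, adjusted p = 4.99e-06). Hbegf (log2 fold change -1.77 ± 0.33, adjusted p = 0.000121) and Areg, the gene of amphiregulin, fell too, Areg with 31 DMSO reads and 2 benzamil reads. Btc, the gene of betacellulin, rose instead. It held 7.14, 7.63, 20.9 and 5.24 CPM with DMSO and 77.8, 44.5, 110 and 35.1 CPM with benzamil, and its lowest benzamil library stood above its highest DMSO library (log2 fold change 2.84 ± 0.41, adjusted p = 1.96e-06). The receptor Egfr had -1.22 ± 0.32, and its groups overlapped. The 6 lower members became 3 without benzamil library 1 or without benzamil libraries 3 and 4.

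Cell cycle and replication genes fell in 17 of 58 cases and rose in 1, with a median of -0.87. Ranbp1, a regulator of nuclear transport and mitosis, held 160.1, 153, 55.7 and 107 CPM with DMSO and 34.6, 19.1, 48.9 and 21.1 CPM with benzamil (log2 fold change -2.03 ± 0.33, adjusted p = 1.17e-05). Cdc20, which activates the anaphase-promoting complex, and Mcm6, a subunit of the replicative helicase, had -2.02 ± 0.42 and -1.835 ± 0.39. Ccnd2, the gene of cyclin D2, rose, from 281, 313, 292 and 296 to 850.2, 492, 672 and 717 CPM (log2 fold change 1.21 ± 0.19, adjusted p = 1.11e-05). The 17 became 10 without DMSO library 1, 9 without benzamil library 1, 11 without benzamil library 3, 10 without benzamil libraries 3 and 4, 7 with every library thinned to the depth of the shallowest, and 26 with scaling by library totals.

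**Figure D3:**
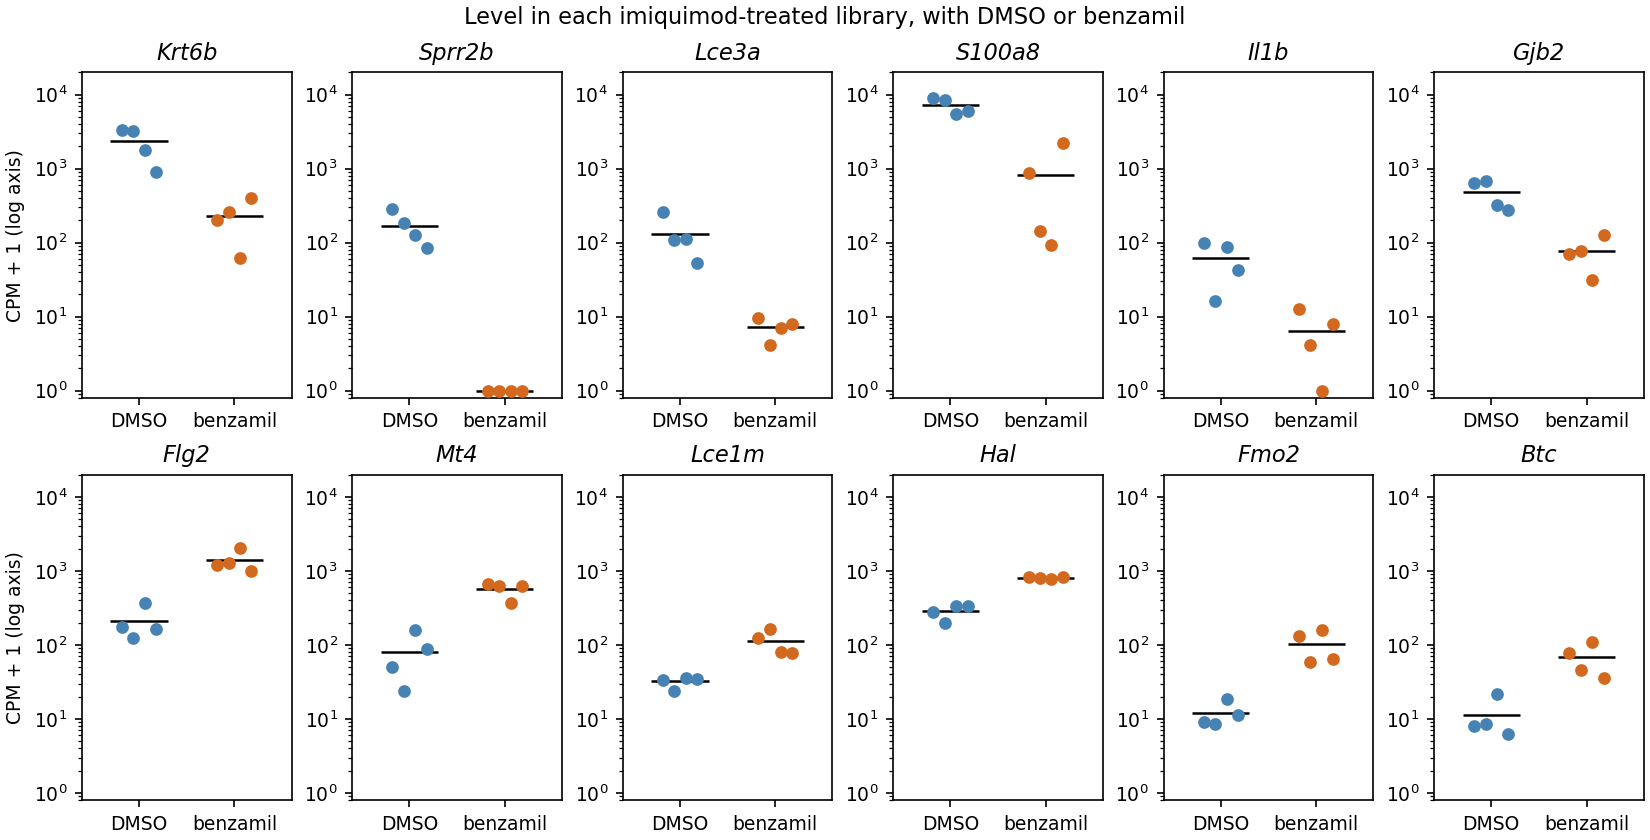
Level of 12 genes in each library, as CPM + 1 on a log axis. Each point is 1 library, blue with DMSO and orange with benzamil, and the bar is the mean of 4 libraries; the upper 6 genes were lower with benzamil and the lower 6 higher, and the groups of each gene do not overlap.

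Genes of late epidermal differentiation rose in the larger part of their calls. Of 72 in the table, 30 rose and 10 fell, with a median of 0.49, against 5.36% and 8.25% of all genes. Flg2, the gene of filaggrin-2 of the cornified layer (chr3:93197278-93221391), held 174, 125, 362 and 165 CPM with DMSO and 1199, 1270, 2065 and 991 CPM with benzamil. The lowest benzamil library stood above the highest DMSO library (log2 fold change 2.77 ± 0.25, adjusted p = 2.99e-11). Hal, histidase of the upper epidermis, which makes urocanic acid, went from 281, 196, 334 and 333 to 827, 800.1, 769.7 and 822 CPM, with the 4 benzamil libraries close together (log2 fold change 1.50 ± 0.19, adjusted p = 1.87e-07). Krt78, a keratin of the suprabasal layers, held 41.8, 33.1, 87 and 94.3 CPM with DMSO and 153, 229, 281 and 225 CPM with benzamil (log2 fold change 1.84 ± 0.26, adjusted p = 1.44e-06). Lce1m, 1 of the late cornified envelope genes, held 32.6, 22.9, 34.8 and 34 CPM with DMSO and 121, 165, 79.4 and 77.3 CPM with benzamil (log2 fold change 1.90 ± 0.28, adjusted p = 2.86e-06). Flg, Lor, Hrnr and Krt2, abundant products of the granular and cornified layers, rose by 1.34, 0.99, 0.98 and 1.59 on the log2 scale, without overlap.

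Among the 10 differentiation genes that fell was Tgm1, the transglutaminase that crosslinks the envelope, with 73.4, 40.7, 38.3 and 31.4 CPM with DMSO and 5.76, 6.35, 0 and 7.03 CPM with benzamil (log2 fold change -3.20 ± 0.52, adjusted p = 1.57e-05). Kallikreins were among them as well, with Klk13 at -1.56 ± 0.26 and Klk10 at -1.75 ± 0.29. Klk14 had 14 DMSO reads and none with benzamil. Klk8, a kallikrein too, rose (1.30 ± 0.22). Cnfn, Ly6d and Rptn, further proteins of the upper layers, fell, with log2 fold changes of -1.01, -1.10 and -0.94, with overlapping groups. Without benzamil libraries 3 and 4, 6 members fell and 31 rose. With scaling by library totals, 23 rose and 16 fell, and over the alternatives 22 to 34 rose.

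Basal keratinocyte and anchorage genes were mixed, with 5 of 25 higher and 3 lower (4 and 5 with scaling by library totals, 4 and 1 without DMSO library 1). The shares of 20% higher and 12% lower compare with 5.36% and 8.25% of all genes. Cdh3, the gene of P-cadherin, had 158 DMSO reads and 3 benzamil reads, a ratio of 24.9 (95% interval from counting alone 8.38 to 122; log2 fold change -4.33 ± 0.56, adjusted p = 1.87e-07). Dst, whose epidermal form anchors keratins at hemidesmosomes, held 331, 468, 557 and 479 CPM with DMSO and 1438, 1076, 1729 and 1082 CPM with benzamil (log2 fold change 1.55 ± 0.20, adjusted p = 2.4e-07). Krt15, a keratin of resting basal cells, rose (log2 fold change 1.15 ± 0.24, adjusted p = 0.000558), and its DMSO library 1 stood apart as the lowest. The general basal keratins Krt5 and Krt14 were not called, at -0.55 ± 0.20 and -0.24 ± 0.21.

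Several gap junction genes fell. Gjb2, the gene of connexin 26, which is known to be induced in psoriatic epidermis, held 641, 669, 320.1 and 278 CPM with DMSO and 69.2, 76.2, 30.5 and 126 CPM with benzamil (log2 fold change -2.70 ± 0.28, adjusted p = 1.01e-09). Gjb6 (connexin 30) and Gja1 (connexin 43) fell as well (-1.92 ± 0.35 and -1.28 ± 0.20). In the list of gap and tight junctions, 4 of 17 fell and 1 rose, Cldn1 among those that fell (-1.06 ± 0.25). Desmosome and adherens genes had 2 of 16 lower, Dsg3 (-1.44 ± 0.22) and Ctnnd1 (-3.32 ± 0.55), and 1 higher, Pkp3 (0.79 ± 0.20), and scaling by library totals gave 4 lower. Those shares of 12.5% lower and 6.25% higher lay near the 8.25% and 5.36% of all genes.

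In the channel that benzamil blocks, the beta and gamma subunits were barely covered, while the alpha subunit had 84 DMSO and 39 benzamil reads. Scnn1a, the gene of the alpha subunit, held 31.6, 55.9, 45.2 and 47.1 CPM with DMSO and 40.4, 34.9, 30.5 and 63.2 CPM with benzamil, with overlapping groups (log2 fold change -0.08 ± 0.33, adjusted p = 0.909). Scnn1b had 7 DMSO and 5 benzamil reads and Scnn1g 9 and 2, and neither was called (log2 fold change 0.62 ± 0.95, adjusted p = 0.732 and log2 fold change -1.01 ± 1.07, adjusted p = 0.593). With so few reads, a modest difference in the beta and gamma subunits was not detectable. Among the 25 genes of sodium handling, 3 rose (12%) and 0 fell, against 5.36% and 8.25% of all genes. These were Wnk1, a kinase that regulates sodium and chloride transport (282, 326, 383 and 414 to 646, 546, 837 and 639.6 CPM; log2 fold change 0.93 ± 0.19, adjusted p = 0.000581), Slc12a2, the sodium-potassium-chloride cotransporter NKCC1 (log2 fold change 1.0 ± 0.21, adjusted p = 0.000681), and Furin, a protease that cleaves channel subunits (log2 fold change 0.83 ± 0.23, adjusted p = 0.00847). The Furin groups overlapped, and its call was lost in 3 of 19 alternatives. The sodium pump gene Atp1b1 was not called (-0.54 ± 0.27). With scaling by library totals, 2 rose and 2 fell. The median log2 fold change of the 25 genes was 0.02, and its sign turned in 6 alternatives.

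Metallothioneins split. Mt4, the metallothionein of differentiating squamous epithelium (chr8:94137197-94139031), held 50, 22.9, 160 and 86.4 CPM with DMSO and 669, 629, 373 and 626 CPM with benzamil. The groups were far apart, with benzamil library 3 below its 3 partners (log2 fold change 2.965 ± 0.28, adjusted p = 8.8e-11). Mt2, a metallothionein of most tissues, fell from 644, 473, 383 and 333 to 225, 302, 202 and 274 CPM (log2 fold change -0.88 ± 0.21, adjusted p = 0.00245), and Mt1 was not called (-0.37 ± 0.20).

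Clade B serpins, inhibitors of proteases, fell in 4 of 14 cases, and none rose. Serpinb2 held 502.7, 298, 177 and 154 CPM with DMSO and 83.6, 76.2, 48.9 and 14.1 CPM with benzamil (log2 fold change -2.23 ± 0.31, adjusted p = 6.63e-07), and Serpinb3a held 366, 351, 202 and 251 CPM with DMSO and 129.7, 28.6, 48.9 and 105 CPM with benzamil (log2 fold change -1.91 ± 0.27, adjusted p = 1.68e-06). Neither gene's groups overlapped. Among other proteases and inhibitors, Prss27, a serine protease of stratified epithelium, and Cstb, cystatin B, fell (-1.98 ± 0.33 and -1.78 ± 0.26), while Tmprss4, a membrane serine protease, and Timp3, a metalloprotease inhibitor, rose (0.90 ± 0.19 and 0.81 ± 0.19). In all, 4 of 22 rose and 4 fell, and 2 rose without DMSO library 1, DMSO library 2, benzamil library 1, benzamil library 4 or benzamil libraries 3 and 4. With scaling by library totals, 2 rose and 5 fell.

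Lipid genes rose in part. In fatty acid synthesis and sebaceous gland, 7 of 32 rose and 2 fell, and 6 rose and 6 fell with scaling by library totals. Scd1, the stearoyl-CoA desaturase of sebaceous glands, held 1040, 1826, 2171 and 2213 CPM with DMSO and 3231, 3099, 4239 and 5201 CPM with benzamil (log2 fold change 1.12 ± 0.22, adjusted p = 0.000284). Fasn, fatty acid synthase, Elovl6, a fatty acid elongase, and Awat1, a wax synthase, had 1.46 ± 0.25, 1.37 ± 0.20 and 1.215 ± 0.20. Among ceramide and barrier lipid genes, 5 of 31 rose (16.1%) and 3 fell (9.68%), against 5.36% and 8.25% of all genes. With library totals, 4 rose and 5 fell. The median log2 fold change of this list was -0.05, and its sign turned in 8 alternatives. Elovl4, which makes the very long fatty acids of barrier ceramides, held 2152, 2350, 2658 and 3540 CPM with DMSO and 4591, 4477, 7147 and 7014 CPM with benzamil (log2 fold change 1.12 ± 0.22, adjusted p = 0.000222), and the ceramide synthase Cers4 rose too (1.15 ± 0.21). Sptlc2, of the first step of ceramide synthesis, and Degs1, the desaturase that turns dihydroceramide into ceramide, fell (-1.48 ± 0.41 and -1.13 ± 0.21). Cholesterol synthesis genes gave 4 higher and 4 lower of 24 (1 and 5 with library totals). Single libraries decided many of these calls. Only 1 or 2 members rose without any one library other than DMSO library 4, and 0 (without benzamil library 1) to 4 fell.

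Lipoxygenases also moved both ways. Alox8, an arachidonate lipoxygenase known to be induced in irritated mouse skin, held 322, 112, 153 and 149 CPM with DMSO and 28.8, 6.35, 12.2 and 14.1 CPM with benzamil (log2 fold change -3.525 ± 0.37, adjusted p = 1.56e-09). Alox12e rose (log2 fold change 1.36 ± 0.38, adjusted p = 0.01), with DMSO library 4 apart from the rest of its group and level with benzamil library 4. Ptges, a prostaglandin E synthase, and Ptgs2, which encodes COX-2, fell, Ptges with -1.77 ± 0.39 and Ptgs2 with 22 DMSO reads and 1 benzamil read. Of 19 genes, 6 fell and 2 rose.

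Enzymes of oxidation and detoxification rose in 5 of 22 cases and fell in 1. Fmo2, a flavin monooxygenase, held 8.16, 7.63, 17.4 and 10.5 CPM with DMSO and 129.7, 57.1, 159 and 63.2 CPM with benzamil, without overlap (log2 fold change 3.31 ± 0.37, adjusted p = 6.9e-09). Cyp2b19, a cytochrome P450 of differentiated keratinocytes, held 26.5, 35.6, 59.1 and 57.6 CPM with DMSO and 118, 85.7, 219.9 and 148 CPM with benzamil (log2 fold change 1.71 ± 0.29, adjusted p = 2.98e-05). Adh1, an alcohol dehydrogenase that can act on retinol, had 11 DMSO and 29 benzamil reads (log2 fold change 2.34 ± 0.54, adjusted p = 0.00168). In the retinoid list, 3 of 15 rose and 1 fell, Rarg (retinoic acid receptor gamma) among those higher (0.90 ± 0.22) and Crabp2 lower (-1.16 ± 0.31). Without benzamil libraries 3 and 4, 1 of that list rose and 0 fell, and with scaling by library totals 2 rose and 2 fell.

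Glutathione and thioredoxin genes of the NRF2 type fell in 9 of 31 cases and rose in 1. Slc7a11, the cystine importer, held 249.8, 229, 177 and 228 CPM with DMSO and 34.6, 31.8, 18.3 and 28.1 CPM with benzamil, without overlap (log2 fold change -2.90 ± 0.27, adjusted p = 8.8e-11). Prdx1, a peroxiredoxin, and Gpx1, a glutathione peroxidase, fell (-1.91 ± 0.28 and -1.31 ± 0.22). Hmox1, heme oxygenase 1, another NRF2 target, rose from 31.6, 30.5, 13.9 and 39.3 to 74.9, 54, 79.4 and 70.3 CPM (log2 fold change 1.19 ± 0.31, adjusted p = 0.00563).

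Glycolysis and hypoxia genes fell in 7 of 28 cases, and none rose. The glucose carrier Slc2a1, hexokinase 2 (Hk2) and Hif1a had -1.25 ± 0.27, -1.49 ± 0.32 and -0.85 ± 0.21. Unfolded protein response genes fell in 7 of 27 cases, and none rose, with Hspa5, the chaperone BiP, going from 1007, 577, 804 and 657 to 372, 378, 403 and 379.5 CPM (log2 fold change -1.0 ± 0.20, adjusted p = 0.00028). Each of these lists had 4 lower members without DMSO library 1 and 4 without benzamil libraries 3 and 4. Of the unfolded protein response list, 12 fell with scaling by library totals and 2 with every library thinned to the depth of the shallowest. Heat shock proteins and chaperones fell in 11 of 32 cases and rose in 2. Hspa9 and Hspa1b fell (-1.42 ± 0.21 and -2.19 ± 0.35), while Hspb8, a small heat shock protein, rose (1.30 ± 0.24).

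Transcription factors of the epidermis fell in 7 of 35 cases and rose in 4. Id1 and Hes1, targets of BMP and Notch signals, fell (-1.655 ± 0.31 and -1.57 ± 0.33), and Gata3, a factor of barrier genes, rose from 355, 386, 480.1 and 516 to 755, 749, 788 and 689 CPM (log2 fold change 0.79 ± 0.19, adjusted p = 0.00258). The 7 became 4 without benzamil library 3 and 2 without benzamil libraries 3 and 4, the 4 became 2 without DMSO library 2, and scaling by library totals gave 2 higher and 13 lower. Autophagy, lysosome and caspase genes rose in 4 of 29 cases (13.8%) and fell in 1 (3.45%), against 5.36% and 8.25% of all genes. Among those that rose were Map1lc3a, Map1lc3b and Gabarapl1, which encode the ubiquitin-like proteins of autophagosomes (1.26 ± 0.22, 1.34 ± 0.24 and 1.46 ± 0.30). Clock genes rose in 4 of 15 cases and fell in 1. Among the 4 was Dbp, with 8 DMSO and 19 benzamil reads, which entered the table only through its benzamil reads. Hlf and Tef, output factors of the clock, rose (1.06 ± 0.22 and 1.52 ± 0.34), and Bhlhe40, a repressor of clock genes, fell from 59.1, 45.8, 31.3 and 41.9 to 5.76, 9.53, 0 and 14.1 CPM (log2 fold change -2.65 ± 0.48, adjusted p = 7.89e-05). Leaving out benzamil library 1, or 4, or 3 and 4 together, left 2 higher clock genes. The hour of sampling is not given in the sources used here.

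**Figure D4:**
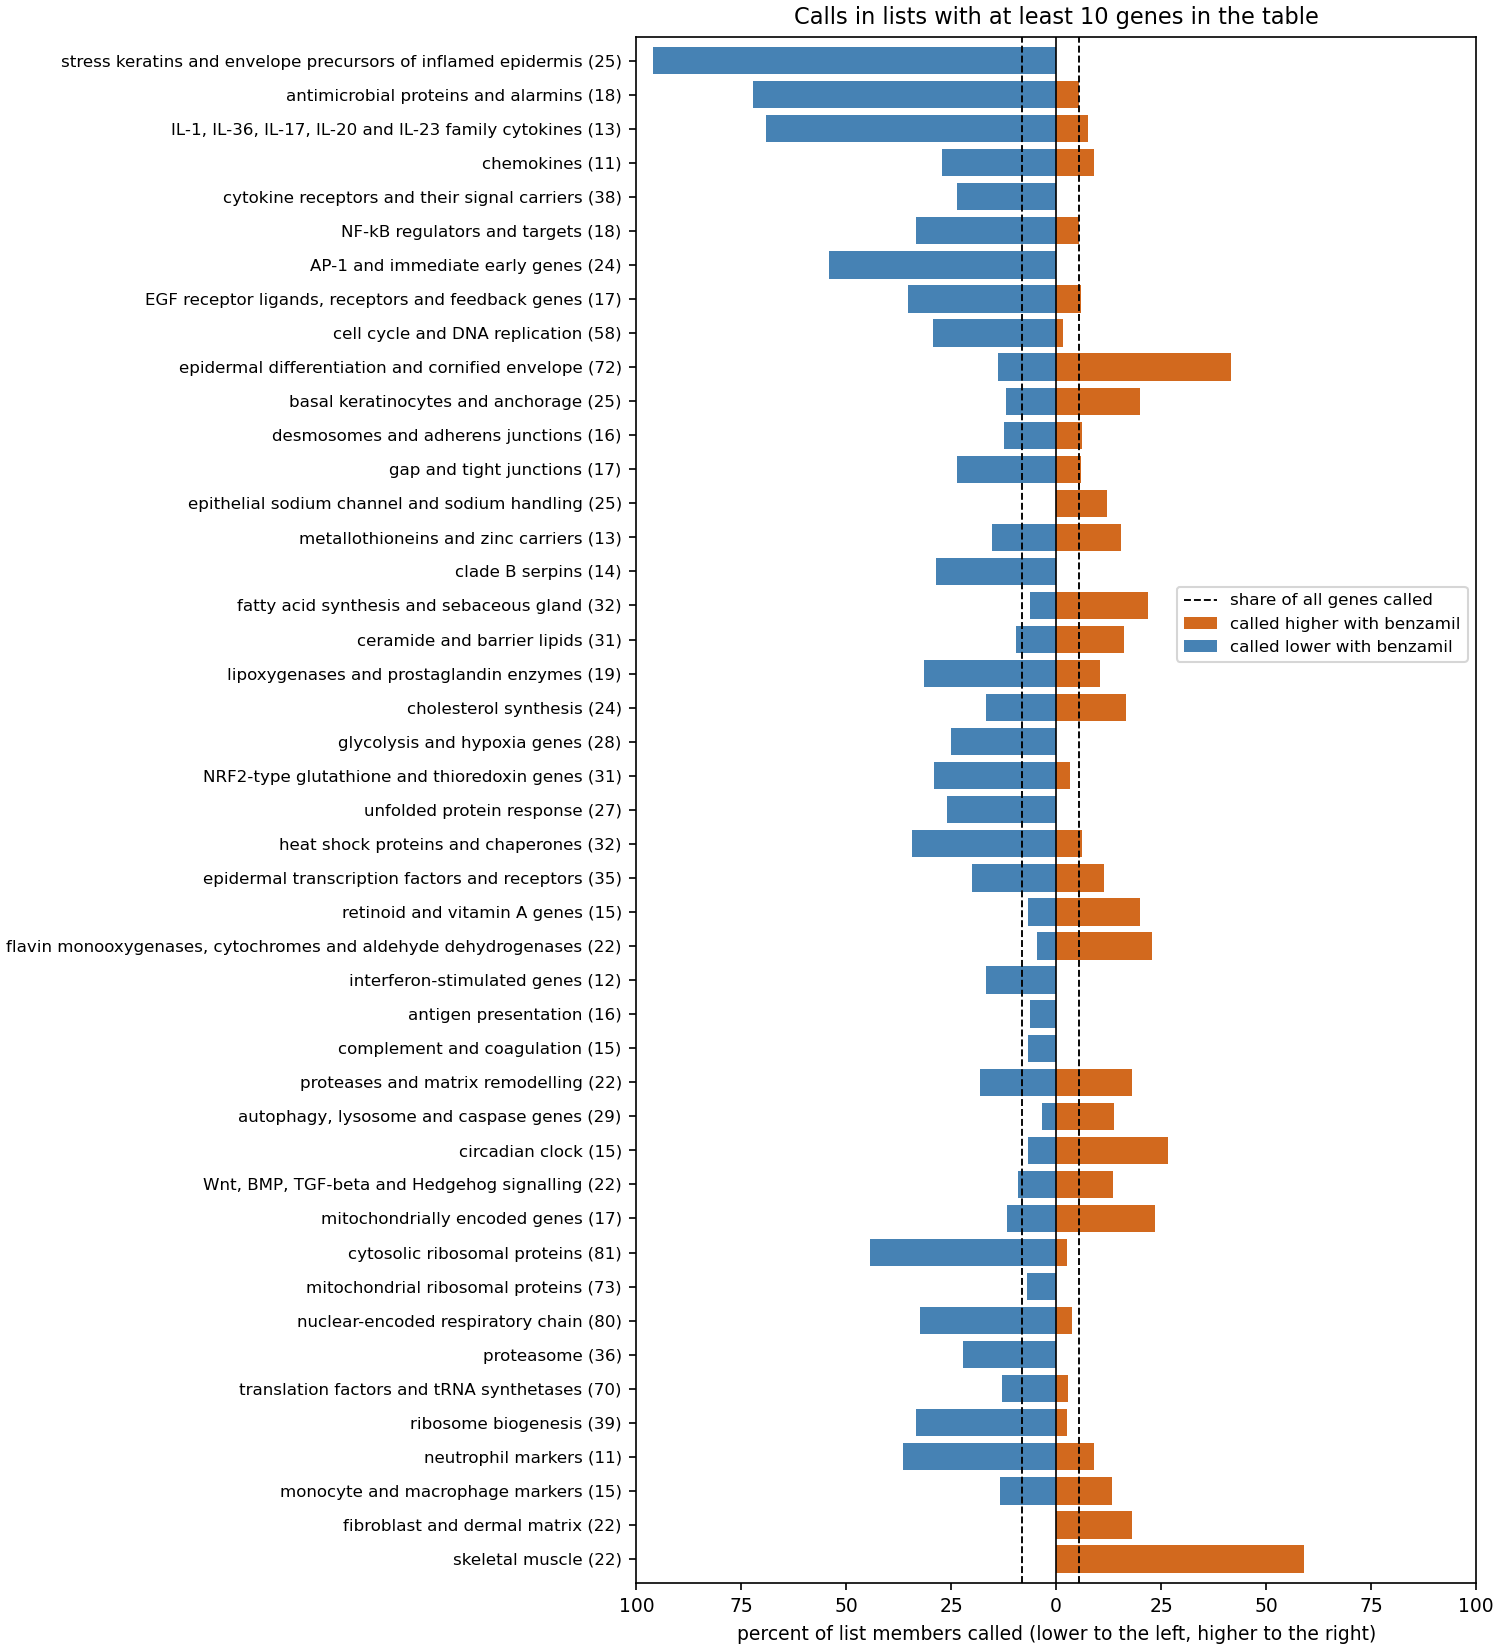
Share of members called lower (blue, to the left) and higher (orange, to the right) with benzamil, in percent, for each list with at least 10 genes in the table, whose number of genes stands in brackets. Dashed lines are the shares over all genes, 8.25% lower and 5.36% higher; stress keratins and envelope precursors reach 96.0% lower.

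Ribosomal protein genes held more lower calls than any other list, and many of these rested on a few libraries. Of 81 cytosolic ribosomal protein genes, 36 fell and 2 rose, with a median of -0.62. Rps2, of the small subunit, held 399.7, 122, 125 and 159.7 CPM with DMSO and 63.4, 31.8, 24.4 and 21.1 CPM with benzamil (log2 fold change -2.43 ± 0.34, adjusted p = 8.1e-07), with DMSO library 1 far above the other 3. The summed level of the 81 genes was 28290 to 39830 CPM with DMSO and 25630 to 31720 CPM with benzamil, so the groups overlapped. Without benzamil libraries 3 and 4, 9 fell and 1 rose, and without DMSO library 1, 22 fell and 2 rose. Scaling by library totals gave 49 lower and 1 higher.

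Genes of energy supply and protein turnover followed. In the nuclear-encoded respiratory chain, 26 of 80 fell and 3 rose, and 14 fell and 1 rose without benzamil libraries 3 and 4. Among the 3 was Cox7a1, with 4 DMSO and 13 benzamil reads, which entered the table only through its benzamil reads. Ndufa4, a subunit of the chain, held 398, 153, 167 and 159.7 CPM with DMSO and 34.6, 25.4, 24.4 and 35.1 CPM with benzamil (log2 fold change -2.92 ± 0.32, adjusted p = 4.72e-09), with DMSO library 1 the highest by far. Cox7a2l, which helps to assemble supercomplexes, rose from 148, 191, 198 and 223 to 441, 387, 544 and 626 CPM (log2 fold change 1.39 ± 0.20, adjusted p = 1.9e-06). Of 36 proteasome genes, 8 fell and 0 rose, but 4 fell without DMSO library 1, 4 without benzamil library 3 and 1 without benzamil libraries 3 and 4. Ribosome biogenesis genes fell in 13 of 39 cases and rose in 1, with 12 lower without those 2 libraries and 8 without DMSO library 1. Npm1, a nucleolar chaperone, held 1098, 1048, 744 and 791 CPM with DMSO and 473, 483, 385 and 330.3 CPM with benzamil (log2 fold change -1.125 ± 0.20, adjusted p = 4.93e-05). Translation factors and tRNA synthetases fell in 9 of 70 cases (12.9%) and rose in 2 (2.86%), against 8.25% and 5.36% of all genes. With scaling by library totals, 15 of them fell and 0 rose. Mitochondrial ribosomal proteins fell in 5 of 73, a share near that of all genes, in 2 without DMSO library 1 or without benzamil libraries 3 and 4, and in 10 with scaling by library totals. That scaling gave 37 lower and 1 higher in the respiratory chain and 16 lower and 0 higher in ribosome biogenesis.

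Of 17 genes of the mitochondrial genome, 4 rose and 2 fell. The 16S ribosomal RNA mt-Rnr2 took a mean of 29.7% of reads with benzamil and 16.3% with DMSO (log2 fold change 1.12 ± 0.30, adjusted p = 0.0068). The mRNAs mt-Nd1 and mt-Cytb fell, mt-Nd1 from 6844, 6700, 5163 and 4564 to 2746, 3709, 2388 and 2080 CPM (log2 fold change -1.09 ± 0.21, adjusted p = 0.000285) and mt-Cytb from 4213, 4689, 3427 and 3187 to 2159, 2470, 910.2 and 766 CPM (log2 fold change -1.28 ± 0.25, adjusted p = 0.000213). For both, benzamil libraries 3 and 4 were the lowest. The other mRNA and ribosomal RNA genes in the table, mt-Co1, mt-Nd2, mt-Nd4, mt-Nd5, mt-Nd6 and mt-Rnr1, were not called. Of the transfer RNA genes, mt-Tp, mt-Tv and mt-Tm rose. The mt-Tm groups overlapped, and its call (adjusted p = 0.04998) was lost in 12 of 19 alternatives, while that of mt-Tv was lost in 2 of 19. Of the 4 genes higher in this list, 2 rose without DMSO library 1.

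**Figure D5:**
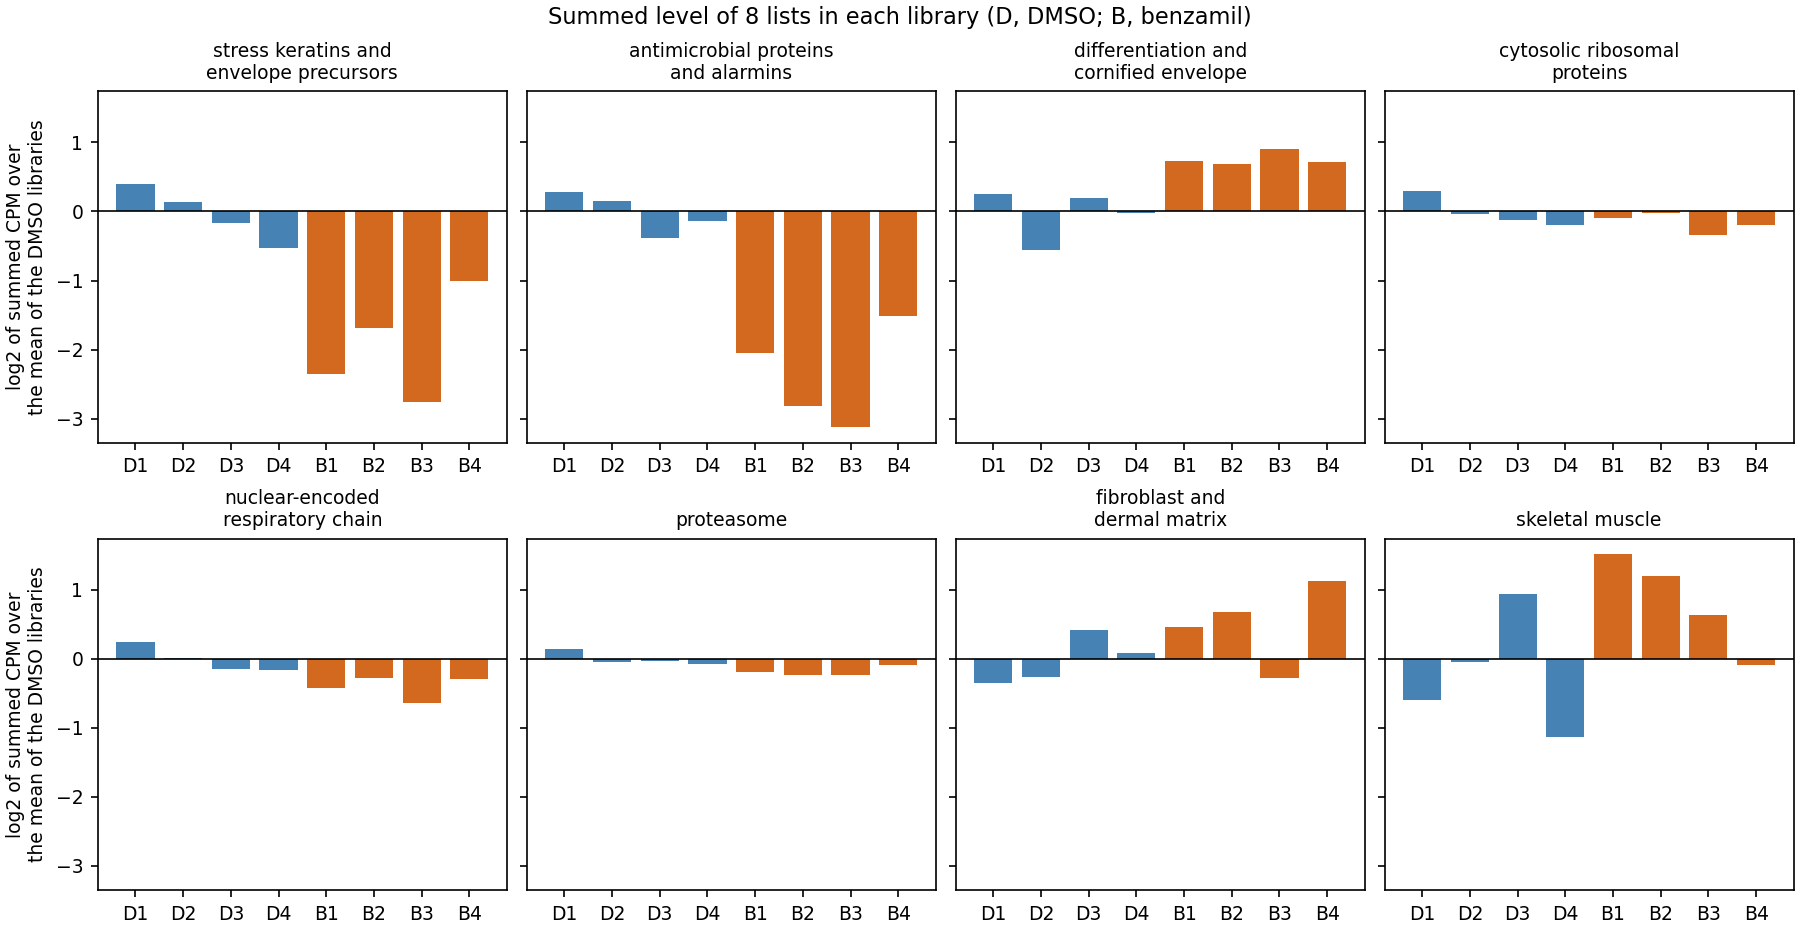
Log2 of the summed CPM of 8 lists in each library over the mean of the 4 DMSO libraries (vertical axis), for DMSO libraries D1 to D4 (blue) and benzamil libraries B1 to B4 (orange). Stress genes and antimicrobial proteins are lower in all 4 benzamil libraries and differentiation genes higher, respiratory chain and proteasome sums differ little but without overlap, and ribosomal, fibroblast and muscle sums overlap between the groups.

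Markers of other cell types bear on how much of each tissue a library held. Skeletal muscle genes rose in 13 of 22 cases, and none fell, with a median of 1.29. The groups were separate for only 1 of the 22, Myl1. Myl1, a myosin light chain, held 12.2, 40.7, 62.6 and 10.5 CPM with DMSO and 158, 133, 97.7 and 91.4 CPM with benzamil, without overlap (log2 fold change 2.22 ± 0.34, adjusted p = 4.23e-06). Acta1 and Myh4 rose as well (log2 fold change 1.38 ± 0.32, adjusted p = 0.00213 and log2 fold change 1.67 ± 0.38, adjusted p = 0.00168), yet DMSO library 3 lay within the benzamil range for both. Summed muscle levels were 642 to 2710 CPM with DMSO and 1321 to 4012 CPM with benzamil. The 13 became 7 without DMSO library 1, 4 without benzamil library 1 and 8 without benzamil library 2, and 2 with the Wald test of DESeq2. Fibroblast and matrix genes rose in 4 of 22 cases, led by Sparc, which held 135, 117, 202 and 159.7 CPM with DMSO and 386, 435, 238 and 815 CPM with benzamil (log2 fold change 1.61 ± 0.24, adjusted p = 2.97e-06), and 2 members rose without DMSO library 1, without benzamil library 4 or with scaling by library totals. Fibroblast sums were 964 to 1646 CPM and 1020 to 2713 CPM.

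Among myeloid markers, 2 of 15 rose and 2 fell (13.3% each, against 5.36% and 8.25% of all genes). Gpnmb, a glycoprotein of macrophages and other cells, rose from 6.12, 15.3, 13.9 and 7.86 to 43.2, 44.5, 36.6 and 77.3 CPM (log2 fold change 2.29 ± 0.42, adjusted p = 9.47e-05), and Apoe rose as well (0.83 ± 0.19). Cd14 fell, with 19 DMSO reads and none with benzamil, a call lost in 9 of 16 alternatives, and 0 fell without DMSO library 1 or without benzamil libraries 3 and 4. No member was called in the lists for Langerhans and dendritic cells (7 genes), T and innate lymphoid cells (7), endothelium (6), adipocytes (7), melanocytes and Schwann cells (4), mast cells (3), hair follicle (6), cartilage (7) and red cells (5). Cd74 of antigen-presenting cells and Thy1 of T cells had 0.39 ± 0.27 and 0.11 ± 0.25. Many of these markers had few reads, and Cd3e had 12 in all, so modest differences were not detectable. The part of these cell types in the results above was not tested.

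Of 12 interferon-stimulated genes 2 fell (16.7%), of 16 antigen presentation genes 1 (6.25%) and of 15 complement and coagulation genes 1 (6.67%), against 8.25% of all genes. No gene of these lists rose, and 1, 0 and 0 fell without DMSO library 1. Ifitm1, of the 2 interferon-stimulated genes, had 17 DMSO reads and none with benzamil. It thus entered the table through its DMSO reads alone, and its call was lost in 7 of 16 alternatives. Ifitm3, an interferon-induced membrane protein, held 439.5, 341, 250.5 and 359 CPM with DMSO and 124, 118, 122 and 119.5 CPM with benzamil (log2 fold change -1.54 ± 0.21, adjusted p = 9.29e-07), with the benzamil libraries close together and below every DMSO library. Among Wnt, BMP and TGF-beta genes 3 of 22 rose (13.6%) and 2 fell (9.09%), against 5.36% and 8.25% of all genes. Bmp2, a bone morphogenetic protein, was the member of smallest p, at 1.36 ± 0.39, a call lost in 2 of 18 alternatives. Bmp4, also among the 3, had 5 DMSO and 13 benzamil reads and entered the table only through its benzamil reads. In that list 1 rose and 0 fell without DMSO library 1 or without benzamil libraries 3 and 4, and 1 rose and 2 fell with scaling by library totals.

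Outside all lists, genes were taken by smallest p among those with separate groups and at least 20 reads per library on average. The first to rise was Snord13, a small nucleolar RNA gene, with 142, 313, 261 and 280.2 CPM with DMSO and 1092, 845, 1167 and 1174 CPM with benzamil (log2 fold change 2.12 ± 0.21, adjusted p = 5.12e-10). Aif1l, which encodes an actin-bundling protein, held 35.7, 20.3, 80 and 23.6 CPM with DMSO and 213, 156, 299 and 225 CPM with benzamil (log2 fold change 2.53 ± 0.28, adjusted p = 5.66e-09). Sema3d, a secreted semaphorin, and Gpt, alanine aminotransferase, rose by 1.99 and 2.37 on the log2 scale. Mgll, monoacylglycerol lipase, was an abundant member, going from 567, 826, 988 and 1016 to 1916, 1984, 2303 and 2593 CPM (log2 fold change 1.38 ± 0.20, adjusted p = 2.86e-06). The first to fall was Gk, glycerol kinase, with 348, 414, 219 and 267 CPM with DMSO and 34.6, 15.9, 18.3 and 84.3 CPM with benzamil (log2 fold change -3.20 ± 0.30, adjusted p = 8.8e-11). Cstdc5, a gene of the stefin cluster on chromosome 16, held 4514, 4308, 3169 and 3066 CPM with DMSO and 807, 1762, 434 and 850.4 CPM with benzamil (log2 fold change -1.95 ± 0.25, adjusted p = 1.87e-07). Slc25a5, the ADP/ATP carrier of mitochondria, Cd44, the hyaluronan receptor, and Anxa1, annexin A1, fell, with log2 fold changes of -2.37, -1.55 and -1.64. Slc5a1, the sodium-glucose cotransporter SGLT1, fell from 270.2, 226, 129 and 162 to 74.9, 63.5, 42.8 and 49.2 CPM (log2 fold change -1.73 ± 0.26, adjusted p = 3.15e-06).

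The 874 genes with no row in the untreated table had at most 9 reads over the 4 DMSO libraries, with a median of 7. Of these, 29 were called higher and 0 lower. The table holds no gene with under 10 reads over the 8 libraries, so genes this low with DMSO entered it through their benzamil reads, and this split says nothing about benzamil. The reads of its members are given for the same reason without a fold change or test. Dbp, Bmp4 and Cox7a1 are also among the 874, though their calls are counted in the lists above. Car6, a secreted carbonic anhydrase, had 1 DMSO read and 18 benzamil reads, from all 4 benzamil libraries. Tlr5, the receptor for flagellin, had 1 and 9 reads. Krtap3-2, a hair keratin associated protein, had none with DMSO and 10 with benzamil, which came from benzamil libraries 1 and 2 alone. In the other direction, 45 genes called lower had no benzamil read and entered the table through their DMSO reads alone. Klk14, Cd14, Retnlg, Ifitm1 and Ccl4, counted in the lists above, are among them.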

How the data were processed

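Whole-skin RNA was sequenced from its 3' ends (500 ng per library, a kit with molecular identifiers, MiSeq; whether identifiers were collapsed is not given in the sources used here). The authors deposited variance-stabilised log2 values of 8 libraries in 1 table. The submitters' processing notes name STAR, featureCounts, DESeq2 and mm10, with no versions. Inverting the log2 transform gave whole numbers of reads (within 0.001 read) for every value, and the 39116 DMSO values shared with the table of untreated libraries agreed. The deposited count table was not used: its 61533 identifiers are human and none is from mouse. The authors' tables of fold changes were not used.

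The recovered reads, and not the deposited unit, entered edgeR 4.0.16 in R 4.3.3 (TMM, quasi-likelihood test, no filter, Benjamini-Hochberg threshold 0.05 over 10653 genes, 8 libraries, no covariate). The design had foreseen counts, and limma 3.58.1 on the log2 values and DESeq2 1.42.0 were alternatives. Standard errors (±) were derived from the fold change and the F statistic and are approximate. The common biological coefficient of variation was 0.1897. The steps were tested on simulated data. Intervals and floors (3 reads over a group) cover counting error only.

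The lists (1295 of 1553 genes in the table), the comparison and the rules were chosen with earlier results of these data known. Genes were named by rule: the 4 markers and the channel subunits; in each list, up to 4 called members of smallest p in the direction with more calls and 2 in the other; outside the lists, 15 per direction without overlap and with a mean of at least 20 reads; 10 of the genes absent from the untreated table; and 2 members of most reads in lists without calls. 2310050C09Rik, Areg, Cnfn, Flg, Fosl1, Hrnr, Krt2, Krt6a, Krt16, Krt17, Klk8, Klk10, Klk14, Lce1l, Lce3a, Lce3f, Lcn2, Lor, Ly6d, Myc, Ptgs2, Rptn, Slpi and the uncalled genes given beside called ones were chosen after their values were seen, as were the plotted genes and the printed promoters. Coordinates are of mm10, from GENCODE M21, and promoters from RefSeq (GRCm38.p6). Results for some genes are not reported here.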

Additional observations from a re-analysis of the deposited data

Results flagged for a closer look

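Of the 262 named genes, the 236 with at least 40 reads over the 8 libraries were examined. Among their 472 groups of 4 libraries (each gene with DMSO or with benzamil), 29 held a library farther from the other 3 than Dixon's 95% limit for 4 values allows. About 1 in 20 groups passes that limit by chance. Values are CPM, followed by the range of the other 3 libraries of the group.

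DMSO library 1, the deepest, gave 7 high and 2 low values. It was high for Rps2 at 399.7 (122.1 to 159.7), Ndufa4 at 397.7 (152.6 to 167), the translation factor Eif5a at 423.2 (220 to 247), Cdh3 at 110.1 (41.9 to 53.4) and the heat shock protein Hspb1 at 56.08 (27.83 to 31.42). It was also high for the haemoglobin genes Hbb-bs at 192.7 (27.83 to 36.66) and Hbb-bt at 57.1 (5.086 to 7.856). It was low for Krt15 at 89.73 (225.2 to 244.1) and the elongation factor Eef1a1 at 2020 (2281 to 2309). DMSO library 3 was high for Btc at 20.87 (5.237 to 7.629), Gabarapl1 at 48.7 (25.49 to 28.8), the muscle myosin Myh4 at 184.4 (15.3 to 38.14) and Agap3 at 114.8 (52 to 61.03).

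The other DMSO flags were Pla2g4e at 267 (196.4 to 201.8) and 1810037I17Rik at 714.5 (361.4 to 421.1) in library 2, and Alox12e at 28.8 (12.71 to 15.3) and 2610528A11Rik at 115.2 (184.4 to 195.8) in library 4.

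With benzamil, library 4 was high for Sprr2g at 35.14 (0 to 3.175), Il19 at 35.14 (0 to 5.764) and Pkp3 at 815.3 (524.5 to 571.5), and low for the transfer RNA gene mt-Tv at 28.11 (54.98 to 57.64). Library 3 was low for Mt4 at 372.6 (625.5 to 668.6) and Mgst1, a glutathione transferase, at 61.08 (118.2 to 127). Library 1 was high for the proteasome gene Psma5 at 28.82 (6.108 to 9.525), and library 2 low for the ribosome biogenesis gene Rrs1 at 6.35 (30.54 to 35.14). The remaining 4 flags stood against 3 libraries without a read. These were Il1a at 3.175 in library 2, Ccl20 at 6.108 in library 3, Dnajb9 at 5.764 in library 1 and Prss22 at 7.028 in library 4.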

How the results depend on the processing

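Against 571 higher and 879 lower genes, scaling by library totals alone gave 334 higher, the Wald test of DESeq2 371 higher and 489 lower, and thinning to the shallowest library 325 and 402. Leaving out single libraries gave 338 to 573 higher and 544 to 928 lower genes, with DMSO library 1 giving the fewest in both directions. Leaving out benzamil libraries 3 and 4 together gave 366 and 426. These alternatives used fewer samples or reads, apart from the scaling and the DESeq2 test, for which the cause was not tested. Limma on the log2 values gave 423 and 754. The ribosomal RNA difference was 6.99 to 11.9 percentage points without single libraries, higher with benzamil each time, and its exact permutation p was 0.0571 to 0.0857 without any one DMSO library.

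Of the 262 named genes, 242 were called. Counting called and uncalled genes together, 173 of the 262 neither lost nor gained a call in any alternative that gave them a value. Genes without a call throughout are among the 173. Over all 262 named genes, 362 of 4866 values lost a call, 0 gained one, and 0 turned direction with a call in either fit.

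Replicate numbers are shared between groups, but same-numbered libraries did not deviate together (correlations 0.0659, -0.00173, 0.0385 and 0.0348), so they were not taken as pairs. A fit with the replicate number as a block gave 585 higher and 911 lower genes.

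Depth limits the low genes: 3901 of 10653 had under 40 reads over 8 libraries.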
